A study of Mus musculus with 6 samples.

Results

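The 34 genes described here encode keratins, the parts of desmosomes and hemidesmosomes, and regulators of the basal state of stratified epithelium. They were chosen by mouse gene symbol as members of these groups, when earlier results of these data were known. All 34 were found among the 15295 genes of the deposited count table, and all 34 passed the low-count filter that left 14498 genes for testing. They comprise 15 keratins and 19 junction, plakin and regulator genes.

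Bulk RNA was sequenced from 6 whole NA13 tumours. NA13 is a murine line of bladder cancer cells, and the strain in the labels is C57BL/6. The labels give 3 tumours an shRNA against Ddr2 together with IgG, and 3 tumours a scrambled shRNA together with IgG. IgG was therefore common to both groups. The labels give no age and do not say whether tumours came from separate animals or transduced clones, so the replicate spread behind each p-value could be technical. The target gene did not bear out the labels: Ddr2, which encodes a collagen receptor kinase, stood at 4.84, 19 and 28.6 CPM (counts relative to the TMM-scaled library total) in the libraries labelled shDdr2 1 to 3, against 6.42, 16.7 and 20.5 CPM in control 1 to 3. The counts do not separate RNA of tumour cells from that of host cells. Fibroblast markers (7 of 7 tested) summed to 1198, 3558 and 9879 CPM in the libraries labelled shDdr2 and 2327, 4087 and 4992 CPM in control tumours, and their part in the Ddr2 values was not tested. Directions given here are between libraries as labelled, and in whole tumours fewer cells of a type and less RNA per cell cannot be told apart.

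Keratins are the intermediate filament proteins of epithelial cells. Each filament pairs a type I with a type II keratin, and the pair in use marks the kind of epithelium. Krt5 with Krt14 marks basal cells of stratified epithelia, and Krt8 with Krt18, or Krt7 with Krt19, marks simple and luminal epithelia. Krt6a, Krt6b, Krt16 and Krt17 are induced in wounded or hyperproliferative epithelium. Desmosomes tie the keratin filaments of neighbouring cells together, and hemidesmosomes tie those of basal cells to the basement membrane. In the bladder, basal cells carry the basal keratins.

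Upstream sequences are shown for the basal keratin Krt5 and the simple keratins Krt7 and Krt18, because these classes differed in steadiness between tumours. They are the 250 bases before the RefSeq start (GRCm38.p6), for Krt5 at chr15:101712906-101713155 on the minus strand, Krt7 at chr15:101412153-101412402 on the plus strand, and Krt18 at chr15:102027966-102028215 on the plus strand. Capitals mark GC boxes (GGGCGG) and AP-2 motifs (GCCNNNGGC), searched on both strands.
Krt5: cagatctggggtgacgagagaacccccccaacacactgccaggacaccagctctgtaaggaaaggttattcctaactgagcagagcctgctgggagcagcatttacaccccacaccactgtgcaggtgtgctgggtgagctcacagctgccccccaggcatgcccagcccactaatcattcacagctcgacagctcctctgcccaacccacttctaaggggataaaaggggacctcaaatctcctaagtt
Krt7: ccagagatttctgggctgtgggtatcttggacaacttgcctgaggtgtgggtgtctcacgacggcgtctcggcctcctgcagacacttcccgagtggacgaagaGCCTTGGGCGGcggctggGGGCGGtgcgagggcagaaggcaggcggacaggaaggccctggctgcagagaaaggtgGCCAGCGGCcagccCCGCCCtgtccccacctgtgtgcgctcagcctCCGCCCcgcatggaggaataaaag
Krt18: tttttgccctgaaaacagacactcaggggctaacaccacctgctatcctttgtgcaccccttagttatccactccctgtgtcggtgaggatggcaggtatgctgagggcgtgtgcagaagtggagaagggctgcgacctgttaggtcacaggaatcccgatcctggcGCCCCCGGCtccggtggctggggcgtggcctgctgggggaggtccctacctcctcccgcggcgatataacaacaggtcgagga
Krt7 held 4 GC boxes, the nearest beginning 24 bases before the start, and 2 AP-2 motifs, 1 of which overlapped a GC box. Krt18 held 1 AP-2 motif, and Krt5 held neither motif. The Krt7 window lies inside the GENCODE span of its gene, which begins at 101411043. The part of these motifs in the keratin levels was not tested. Neither a TATA box (TATAAA) nor an AP-1 motif (TGANTCA) was in any of the 3 windows. Of 32851 RefSeq windows of the same length, 32.7% held a GC box, 13.7% an AP-2 motif, 12.4% a TATA box and 6.75% an AP-1 motif.

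The libraries held 15560571 to 19522985 counts. The keratins alone took 1.74%, 2.03% and 1.91% of the counts in the libraries labelled shDdr2 1 to 3, and 2.02%, 1.75% and 2.09% in control 1 to 3. The library labelled shDdr2 1 stood apart from the other 5 in a way that followed transcript length: relative to the mean of the others, its median gene was higher by 0.77 on the log2 scale among transcripts under 1500 bases and stood at -1.02 among those of 10000 bases or more. Between the same length ranges, smaller trends ran the opposite way in the libraries labelled shDdr2 2 (-0.23 to 0.36) and shDdr2 3 (-0.44 to 0.43). Control 3 also rose (-0.22 to 0.28), while control 1 (0.09 to -0.06) and control 2 (0.03 to -0.04) moved little. For each of these libraries the mean of the others includes the library labelled shDdr2 1. The general epithelial markers (5 of 5 tested) summed to 792 to 1063 CPM in the libraries labelled shDdr2 and 1112 to 1452 CPM in control tumours. Markers of luminal urothelium summed to 319 to 623 CPM in shDdr2-labelled tumours and 476 to 767 CPM in controls, with Upk1a, Upk3a and Upk3b of 8 markers not in the table. Leukocyte markers (7 of 8 tested) summed to 107 to 274 CPM in shDdr2-labelled tumours and 178 to 268 CPM in controls, and endothelial markers (4 of 4) to 46.6 to 256 CPM in shDdr2-labelled tumours and 80.4 to 153 CPM in controls. Skeletal muscle markers (7 of 7) summed to 368 to 2655 CPM in shDdr2-labelled tumours and 8.25 to 97.6 CPM in controls. Of 8 hair follicle markers, 7 were not in the table and Dlx3 stood at 1.23 to 5.11 CPM in shDdr2-labelled tumours and 1.89 to 3.41 CPM in controls. The part of these other cell types in the values below was not tested.

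No keratin, junction or regulator gene passed the test between the groups. With edgeR's quasi-likelihood test adjusted by Benjamini-Hochberg over all genes, 0 of 34 were called at an adjusted p under 0.05, where 0% of all genes were called. At an unadjusted p under 0.05 there were 0 of 34, against 1.44% of all genes. DESeq2 also called 0 of 34, against 0.276% of all genes, and had 1 of 34 at an unadjusted p under 0.05 (Krt15, 0.0410), against 1.91% of all genes. The groups did not overlap in 3 of 34 genes (Krt8, Krt18 and Krt80), against 4.32% of all genes. Fitted log2 fold changes, libraries labelled shDdr2 over control, were above 0 in 13 genes and below 0 in 21, with a median of -0.06 against 0.04 over all genes.

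**Figure D1:**
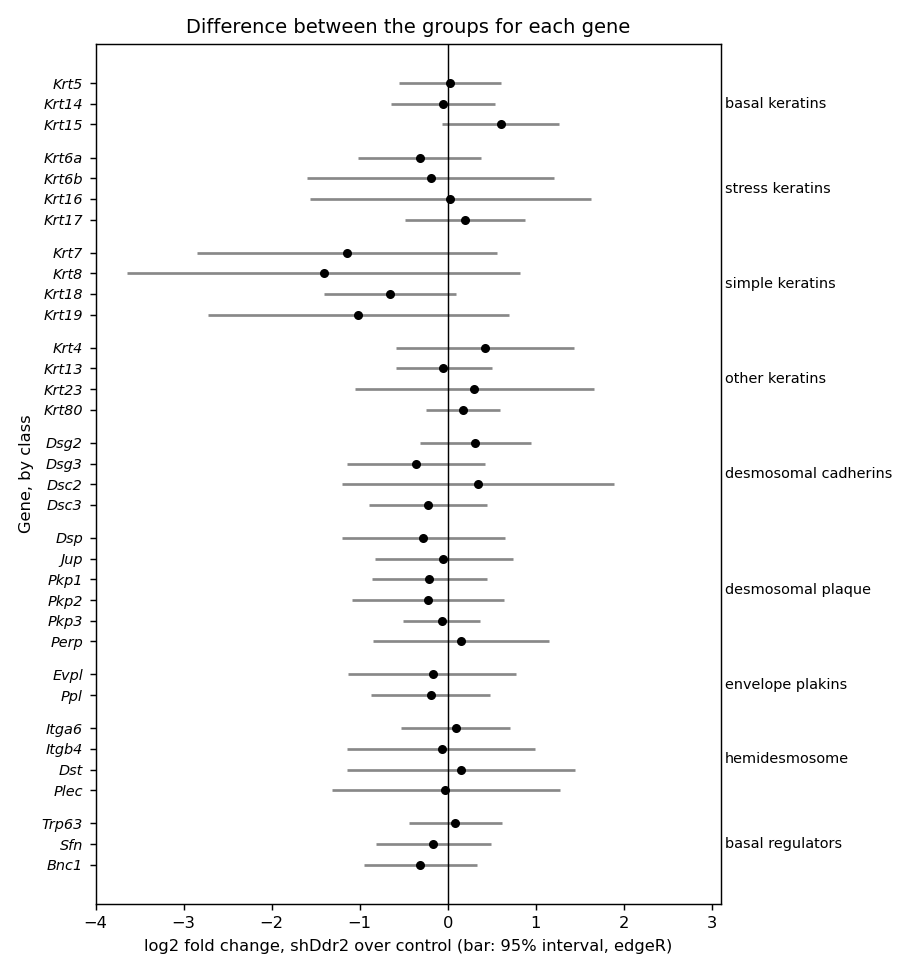
Fitted log2 fold change of each of the 34 genes (points), libraries labelled shDdr2 over control, with its 95% interval from edgeR (bars), grouped by class from top to bottom. Every interval includes 0, the 4 simple keratins lie furthest to the left (-0.66 to -1.41), and Krt15 lies furthest to the right (0.60).

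No basal keratin differed between the groups beyond the test's threshold, and 2 of the 3 varied little over the 6 libraries. Krt5, the type II keratin of basal cells (Entrez 110308, chromosome 15, 101707070 to 101712898, minus strand, GRCm38), stood at 5732, 5798 and 5085 CPM in the libraries labelled shDdr2, against 4939, 5436 and 5954 CPM in control tumours. The highest Krt5 value was 1.21 times the lowest, against a median ratio of 2.04 over all genes tested. Its log2 fold change was 0.02 (SE 0.25, 95% interval -0.55 to 0.60), and -0.01 when libraries were scaled by their plain totals. Krt14, its type I partner (Entrez 16664, chromosome 11, 100203162 to 100207548, minus strand), stood at 4763, 5018 and 4339 CPM in the libraries labelled shDdr2 and 5071, 4083 and 5500 CPM in control tumours. The groups overlapped for both genes. Krt14 had a log2 fold change of -0.05 (SE 0.26, 95% interval -0.65 to 0.54).

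Krt15, a basal keratin of stem-like epithelial cells, varied more. It stood at 1131, 1376 and 885 CPM in the libraries labelled shDdr2, against 691, 949 and 602 CPM in control tumours. Only 1 value of each group crossed into the other, that labelled shDdr2 3 and control 2. This gave a log2 fold change of 0.60 (SE 0.28). The 95% interval was -0.07 to 1.26, and edgeR's unadjusted p was 0.0713 (adjusted p of 1.00). With the replicate block edgeR's unadjusted p was 0.0209 and the adjusted p was again 1.00. That edgeR fit had 1 of 34 genes at an unadjusted p under 0.05, against 1.81% of all genes. Between same-numbered tumours Krt15 was higher in the library labelled shDdr2 in all 3 pairs, but the labels do not say what a number stands for.

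The simple keratins were the most variable class. Krt7, a type II keratin of simple and transitional epithelium (Entrez 110310, chromosome 15, 101411043 to 101430313, plus strand), stood at 49.9, 144 and 236 CPM in the libraries labelled shDdr2, against 635, 183 and 130 CPM in control tumours. Krt19, a type I simple keratin (Entrez 16669, chromosome 11, 100140810 to 100148665, minus strand), stood at 49.8, 157 and 262 CPM in shDdr2-labelled tumours and at 617, 202 and 130 CPM in controls. For both genes the library labelled shDdr2 1 was lowest and control 1 highest, and the groups overlapped. Both spread widely, with a highest value 12.7 times the lowest for Krt7 and 12.4 times for Krt19. Their ratio did not: per kilobase of coding sequence, Krt7 stood at 0.884, 0.806 and 0.792 of the Krt19 level in the libraries labelled shDdr2 and at 0.907, 0.796 and 0.882 in control tumours. These genes lie on different chromosomes, and their order over the 6 libraries was the same. The log2 fold changes were -1.14 (SE 0.73) for Krt7 and -1.02 (SE 0.73) for Krt19, but -0.12 and -0.08 without control 1. In control 1 the erythrocyte markers (4 of 5 tested) summed to 596 CPM, against 25.1 to 62.6 CPM in the other 5 libraries, and the part of this in the keratin values was not tested.

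Krt8 and Krt18, the earliest keratin pair of embryonic and simple epithelium, were lower on average in the libraries labelled shDdr2, without passing the test. Krt8 (Entrez 16691, chromosome 15, 101996698 to 102004482, minus strand) stood at 0.289, 11.8 and 10 CPM in the libraries labelled shDdr2, against 14.6, 30.4 and 14.1 CPM in control tumours. The lowest value came from 4 counts (exact Poisson 95% interval 1.09 to 10.2, counting error only), against 175 to 508 counts in the other 5 libraries. Krt18 (Entrez 16668, chromosome 15, 102028180 to 102032027, plus strand) stood at 36.5, 72.1 and 66.6 CPM in the libraries labelled shDdr2, against 120, 84.0 and 72.4 CPM in control tumours. The groups did not overlap for either gene, though the values 72.1 and 72.4 CPM of Krt18 nearly met. Log2 fold changes were -1.41 (SE 0.95, 95% interval -3.64 to 0.82) for Krt8 and -0.66 (SE 0.32, 95% interval -1.41 to 0.09) for Krt18. The unadjusted edgeR p was 0.181 for Krt8 and 0.0775 for Krt18, and both adjusted p were 1.00. Krt8 was at -1.96 with the replicate block, -2.31 with limma-voom and -2.42 with limma on the deposited log2 values. Without the library labelled shDdr2 1 the fits were -0.85 for Krt8 and -0.41 for Krt18, and Krt18 was also at -0.41 without control 1. The pair was unbalanced: per kilobase of coding sequence Krt8 stood at 0.00684, 0.141 and 0.130 of Krt18 in the libraries labelled shDdr2 and at 0.105, 0.312 and 0.169 in control tumours.

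**Figure D2:**
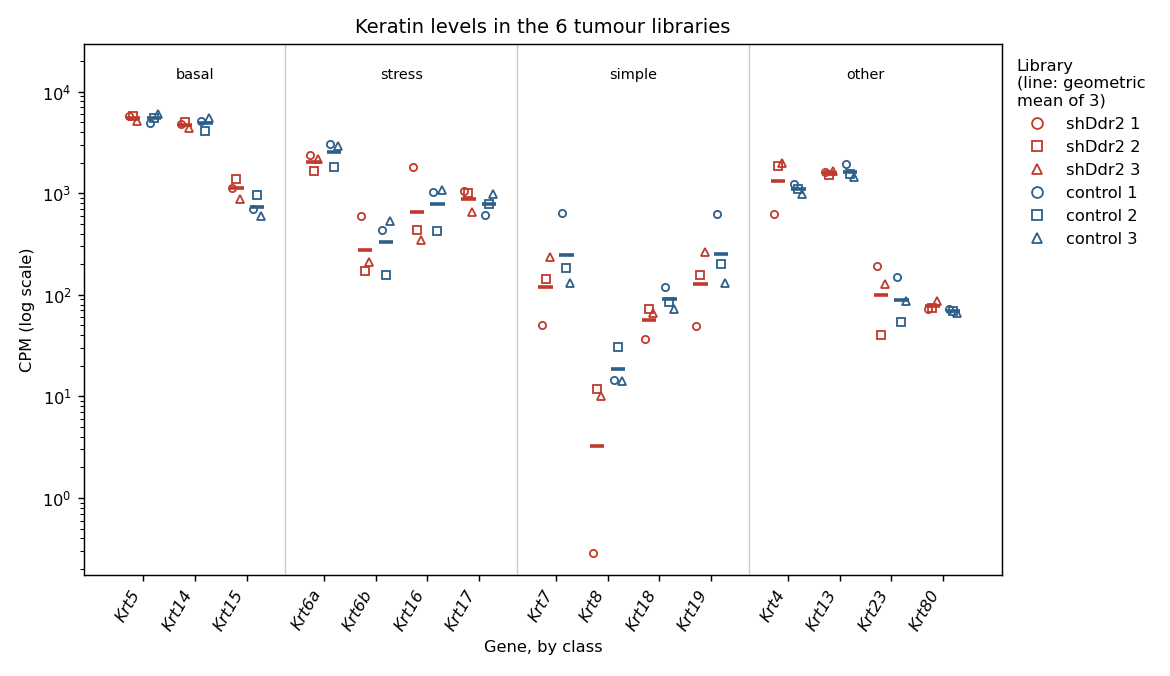
Level of each keratin in CPM (log axis) in the 3 libraries labelled shDdr2 (red, left) and the 3 control libraries (blue, right), with a marker shape per replicate number and a line at the geometric mean of the group. The basal keratins Krt5 and Krt14 lie close together near the top in all 6 libraries, while Krt7 and Krt19 share 1 pattern over the libraries and Krt8 falls to 0.289 CPM in the library labelled shDdr2 1.

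No stress keratin passed the test, and their levels varied between libraries of the same group. Krt6a, a type II keratin of wound edges (Entrez 16687, chromosome 15, 101689910 to 101694307, minus strand), stood at 2370, 1659 and 2165 CPM in the libraries labelled shDdr2, against 3031, 1814 and 2902 CPM in control tumours. Krt6b (Entrez 16688, chromosome 15, 101676023 to 101680287, minus strand), its near copy, stood at 597, 171 and 209 CPM in shDdr2-labelled tumours, against 429, 155 and 534 CPM in controls. Krt16, their type I partner (Entrez 16666, chromosome 11, 100246091 to 100248902, minus strand), stood at 1816, 432 and 342 CPM in shDdr2-labelled tumours, against 1033, 421 and 1081 CPM in controls. For Krt6b and Krt16 the library labelled shDdr2 1, control 1 and control 3 were the 3 highest, and the other 3 libraries lay well below them. Krt17, a type I keratin of wounds and skin appendages, followed another order, at 1059, 1000 and 651 CPM in the libraries labelled shDdr2 and 607, 783 and 973 CPM in control tumours. Log2 fold changes ran from -0.32 for Krt6a to 0.20 for Krt17, and Krt16 stood at 0.03 (SE 0.68, 95% interval -1.57 to 1.63). Its sign turned under plain library totals (-0.10) and without the library labelled shDdr2 1 (-1.13). The markers of cornified epidermis (9 of 11 listed symbols tested) summed to 3806 CPM in that library. In the other 5 they summed to 742 to 1095 CPM. All the tested markers but Flg and Ivl were highest in that library. Flg was lowest there, at 45.3 CPM, and Ivl was highest in control 1. The part of these markers in the stress keratin values was not tested.

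Krt6a and Krt6b cannot be separated fully by short reads, and how shared reads were assigned is not given in the sources used here. Their coding sequences (GENCODE M21) are identical at 1622 of 1659 aligned bases (97.8%), with an unbroken identical run of 280 bases, longer than the 150 bp reads. The window of 120 coding bases in which they differ most (bases 751 to 870 of each, 17 differences, in capitals, chromosome 15, minus strand, GRCm38) is shown, since such stretches tell the coding sequences apart. Untranslated bases were not compared.
Krt6a: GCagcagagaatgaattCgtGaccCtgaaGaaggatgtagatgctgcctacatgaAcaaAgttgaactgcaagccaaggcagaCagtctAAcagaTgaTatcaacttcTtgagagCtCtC
Krt6b: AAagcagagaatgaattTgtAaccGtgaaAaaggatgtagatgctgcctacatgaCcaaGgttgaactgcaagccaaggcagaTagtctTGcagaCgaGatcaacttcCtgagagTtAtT
The next closest pairs were Krt5 with Krt6a, with a longest identical run of 140 bases, and Krt14 with Krt16, with one of 134 bases.

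Among the other keratins, Krt4 and Krt13 form the pair of internal stratified epithelia such as the oesophagus. Krt4 stood at 620, 1835 and 1961 CPM in the libraries labelled shDdr2, against 1239, 1089 and 970 CPM in control tumours. The library labelled shDdr2 1 was lowest, and the other pair of its group lay above all controls. Krt13 was nearly level, at 1600, 1504 and 1645 CPM in the libraries labelled shDdr2 and 1919, 1538 and 1446 CPM in control tumours. The log2 fold change of Krt4 was 0.42 (SE 0.43) with all libraries and 0.79 without the library labelled shDdr2 1, where its unadjusted edgeR p was 0.00345. The adjusted edgeR p of Krt4 in that fit was 0.658, and 6.95% of all genes had an unadjusted edgeR p under 0.05 there. Krt80, a type II keratin of epithelial cell edges, stood at 73.1, 73.3 and 86.6 CPM in shDdr2-labelled tumours, against 72.4, 68.5 and 66.0 CPM in controls. Its groups did not overlap, but the log2 fold change was 0.17 (SE 0.18, 95% interval -0.25 to 0.59). Krt23, a type I keratin, ranged from 40.4 to 190 CPM in the libraries labelled shDdr2 and from 53.5 to 149 CPM in control tumours.

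Per kilobase of coding sequence, Krt14 and Krt5 were the most abundant of the 15 keratins, averaging 3303 and 3156 CPM per kb over the 6 libraries. Krt6a (1401 CPM per kb) and Krt13 (1227 CPM per kb) followed, and Krt8 was lowest at 9.20 CPM per kb. Of the summed keratin level on this scale, the basal class held 57.6% ± 3.38 in the libraries labelled shDdr2 and 55.8% ± 5.05 in control tumours (SD, n = 3 each). The stress class held 21.7% ± 6.76 in shDdr2-labelled tumours and 23.3% ± 4.07 in controls, and the simple class 2.32% ± 1.49 in shDdr2-labelled tumours and 4.48% ± 3.07 in controls (SD, n = 3 each). The ranges of the groups overlapped in every class. The simple share was 0.806%, 2.37% and 3.78% in the libraries labelled shDdr2, and 7.91%, 3.5% and 2.02% in control tumours. On the log2 CPM scale, class means differed between the groups by 0.19 for basal, -0.16 for stress and -1.27 for simple keratins. The SD over the 6 libraries was 0.16, 0.55 and 1.2 for these classes. Leaving out 1 library moved the simple difference to -0.47 (shDdr2 1 left out) or as far as -1.74 (shDdr2 3 left out), and the stress difference to between -0.54 and 0.06. The basal difference was 0.29 with shDdr2 3 left out and 0.12 with shDdr2 2 left out. Among the basal keratins, Krt15 was fitted at 0.60, Krt5 at 0.02 and Krt14 at -0.05.

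**Figure D3:**
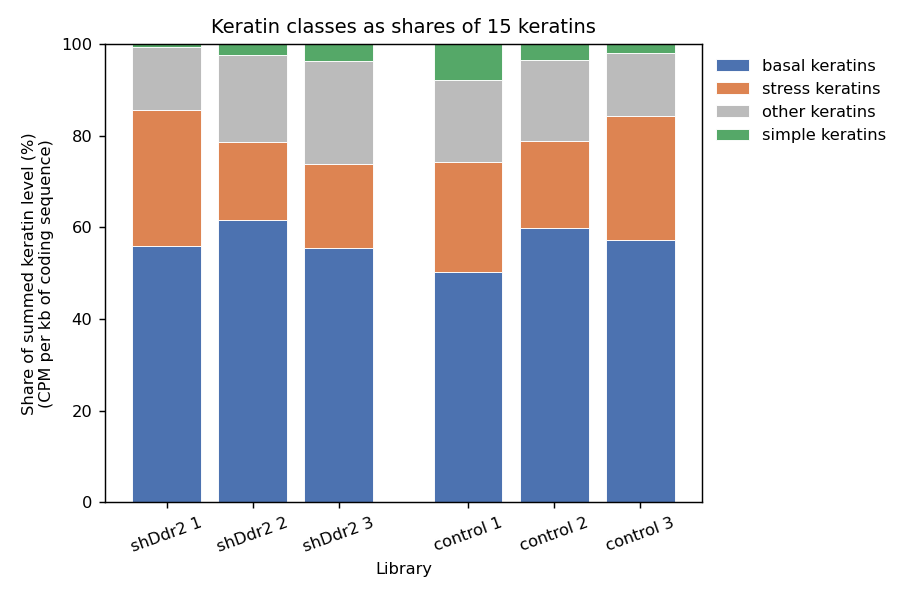
Share of the summed level of the 15 keratins, in CPM per kilobase of coding sequence, held by each class in each library (stacked bars adding to 100%), with the libraries labelled shDdr2 to the left of the controls. Basal keratins hold the larger part in every library (50.2% to 61.5%), and the simple keratins range from 0.806% in the library labelled shDdr2 1 to 7.91% in control 1.

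The desmosomal cadherins, which bridge the gap between cells, did not differ between the groups beyond their spread. Dsg3, the desmoglein of basal layers, stood at 164, 219 and 303 CPM in the libraries labelled shDdr2, against 336, 188 and 359 CPM in control tumours. Dsc3, its desmocollin counterpart, stood at 301, 356 and 363 CPM in shDdr2-labelled tumours, against 525, 261 and 406 CPM in controls. In both genes the groups overlapped, and control 1 and control 3 held the 2 highest values. Dsc2, a desmocollin found in many epithelia, stood at 89.2, 16.6 and 25.4 CPM in shDdr2-labelled tumours, against 30.5, 19.1 and 53.9 CPM in controls, so the library labelled shDdr2 1 was highest. Its log2 fold change was 0.34 (SE 0.66), but -0.72 without that library. Dsg2, the desmoglein of simple and basal epithelia, ranged from 62.1 to 86.0 CPM in the libraries labelled shDdr2 and from 39.4 to 69.8 CPM in control tumours. These 4 genes lie together on chromosome 18, between 19960930 and 20604521.

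The desmosomal plaque genes showed 5 of 6 fitted values below 0, none of them called. Dsp, desmoplakin, which links the plaque to keratin filaments, stood at 688, 1280 and 1575 CPM in the libraries labelled shDdr2, against 1073, 1185 and 2036 CPM in control tumours. Jup, plakoglobin, which binds the cadherin tails, stood at 340, 665 and 698 CPM in shDdr2-labelled tumours, against 490, 527 and 745 CPM in controls. Pkp1, the plakophilin of stratified epithelia, stood at 567, 791 and 865 CPM in shDdr2-labelled tumours, against 749, 731 and 1089 CPM in controls. In all 3 genes the library labelled shDdr2 1 was lowest and control 3 highest. Pkp3, a plakophilin found through all epithelial layers, was the steadiest of the class, at 252 to 286 CPM in shDdr2-labelled tumours and 262 to 307 CPM in controls, with a log2 fold change of -0.07 (SE 0.19). Pkp2, the plakophilin of simple epithelia and heart, ranged from 10.8 to 20.9 CPM in shDdr2-labelled tumours and from 11.9 to 25 CPM in controls. Perp, a small membrane protein needed for desmosome assembly, stood at 1629, 659 and 581 CPM in shDdr2-labelled tumours, against 1039, 739 and 807 CPM in controls. Its log2 fold change of 0.15 (SE 0.43) was -0.47 without the library labelled shDdr2 1, its highest. The envelope plakins also had their lowest value in that library. Evpl, envoplakin, stood at 81.1, 205 and 251 CPM in shDdr2-labelled tumours, against 173, 182 and 251 CPM in controls, and its partner Ppl, periplakin, at 96.5, 168 and 192 CPM in shDdr2-labelled tumours, against 153, 168 and 201 CPM in controls.

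No hemidesmosome gene passed the test, and the library labelled shDdr2 1 was lowest in 3 of 4. Itgb4, the integrin chain that binds plectin, stood at 273, 865 and 818 CPM in the libraries labelled shDdr2, against 531, 605 and 923 CPM in control tumours. Itga6, its partner chain and laminin receptor, did not share the low value and stood at 436, 379 and 527 CPM in shDdr2-labelled tumours, against 404, 320 and 537 CPM in controls. Plec, plectin, which joins hemidesmosomes to keratins, stood at 178, 757 and 938 CPM in shDdr2-labelled tumours, against 506, 622 and 779 CPM in controls. Dst, dystonin, whose epithelial form has the same role, stood at 61.2, 315 and 284 CPM in shDdr2-labelled tumours, against 173, 163 and 259 CPM in controls. The counts do not separate the transcript forms of Dst or of Plec. The libraries labelled shDdr2 2 and 3 lay above all controls for Dst, and for Plec they overlapped the controls. The fitted log2 fold changes were -0.03 (SE 0.55) for Plec and 0.15 (SE 0.55) for Dst. Without the library labelled shDdr2 1 they were 0.41 and 0.59, with an unadjusted edgeR p of 0.0312 for Dst. In that fit 6.95% of all genes had an unadjusted edgeR p under 0.05. Plec and Dst have transcripts of over 10000 bases. The median gene that long stood at 0.36 and 0.43 in the libraries labelled shDdr2 2 and 3. In control 1 to 3 it stood at -0.06, -0.04 and 0.28 (log2 deviation from the mean of the other libraries). The part of length in the fits without the library labelled shDdr2 1 was not tested.

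**Figure D4:**
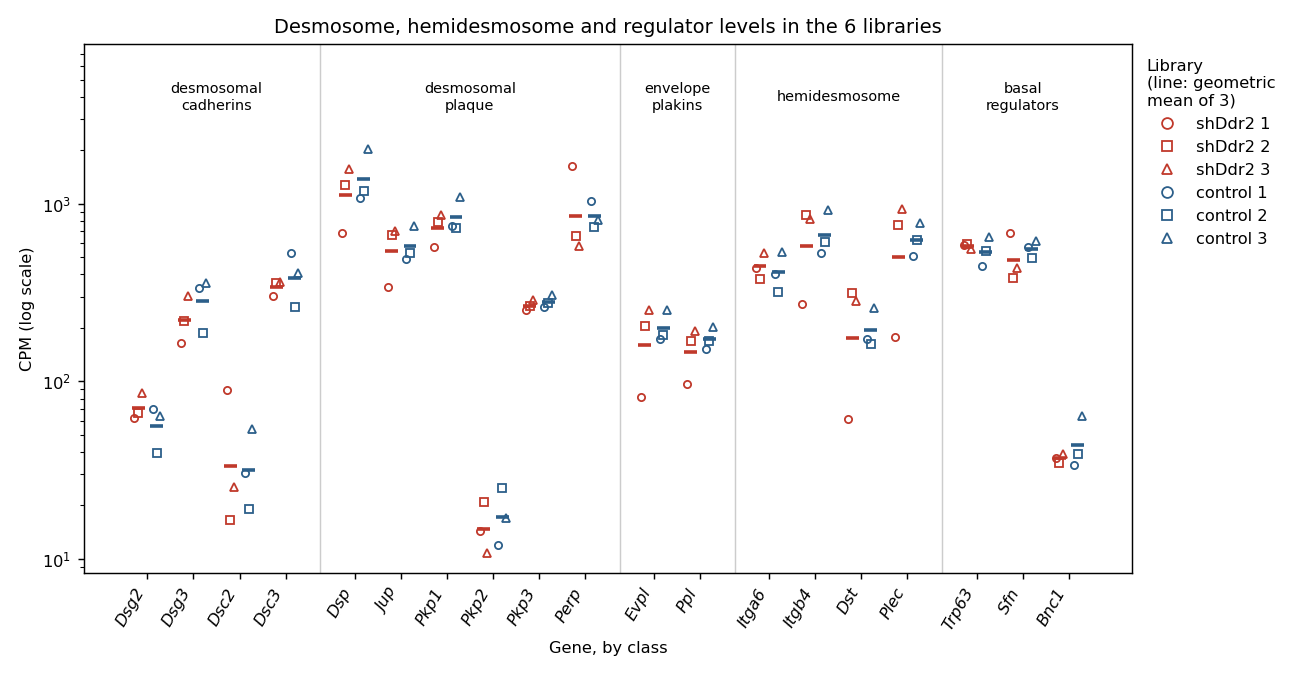
Level of each desmosome, plakin, hemidesmosome and regulator gene in CPM (log axis) in the 3 libraries labelled shDdr2 (red, left) and the 3 control libraries (blue, right), with a marker shape per replicate number and a line at the geometric mean of the group. The library labelled shDdr2 1 (red circles) lies lowest for Dsp, Jup, Evpl, Ppl, Itgb4, Dst and Plec and highest for Dsc2 and Perp.

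In the library labelled shDdr2 1 the genes described here of 6000 bases or more were low, as were most genes that long. The low values of several short keratins went against the median gene of their length. All 7 of the 34 genes with transcripts of 6000 bases or more (Dsg3, Dsp, Itgb4, Dst, Plec, Evpl and Ppl) were below the mean of the other 5 libraries there. So were 85.6% of all genes of 6000 to 10000 bases and 88.1% of those from 10000 bases. Dst and Plec deviated by -1.91 and -1.99 on the log2 scale, against a median of -1.02 for genes that long. Of the simple keratins, Krt18, Krt8 and Krt19 went the other way from the median gene of their length, and Krt7 was lower than its own (-2.14 against -0.35). Krt18, at 1437 bases, deviated by -1.15 in that library, where the median gene under 1500 bases stood at 0.77. Krt8 and Krt19 deviated by -5.21 and -2.22, where the median gene of 1500 to 2500 bases stood at 0.23. Krt4, at 2133 bases, also went against its length, at -1.14. The 14 of the 34 genes with transcripts of 1500 to 2500 bases had a median of 0.23, the same as all genes of that length. Of these 14, 5 were below the other libraries, against 37.0% of all genes of that length. Dsc2, at 4630 bases, deviated by 1.74, against a median of -0.35 for genes of 4000 to 6000 bases. The 8 of the 34 genes in that length range had a median of -0.09. Of these, 5 were below the other libraries, against 71.0% of all genes of that length. Itga6 (0.04), Trp63 (0.09) and Dsg2 (-0.02) were nearly level there, while Dsc3 (-0.31) and Pkp1 (-0.56) were lower. With a correction for transcript length, chosen after seeing the data, edgeR called 0 of 34 genes and 0% of all genes. The fits were then -0.12 for Plec, 0.07 for Dst, -0.10 for Itgb4 and -1.33 for Krt8.

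**Figure D5:**
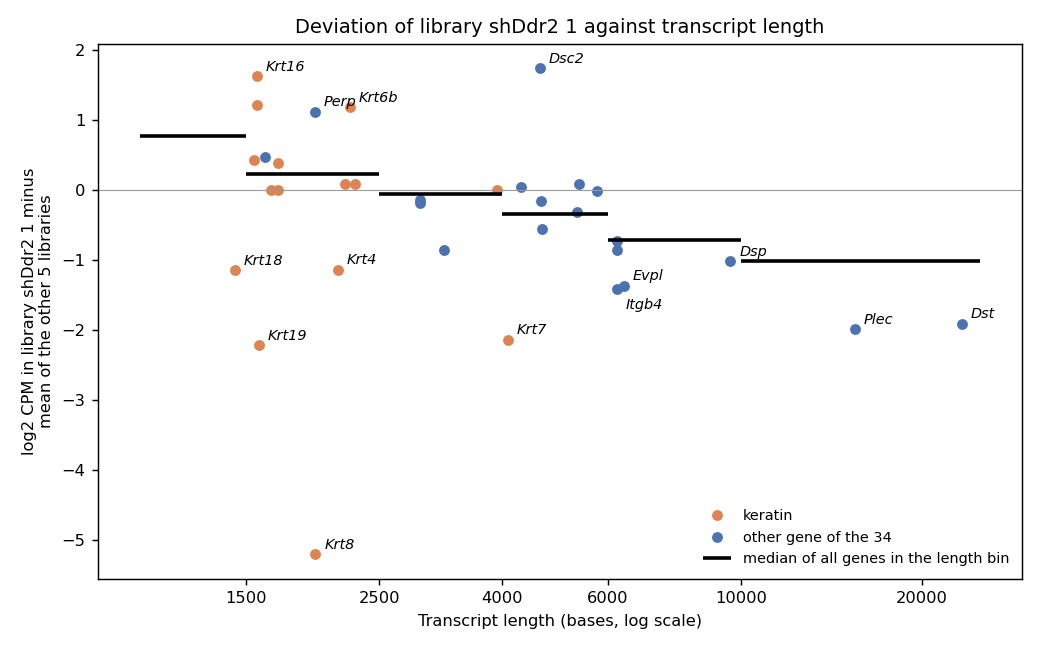
Log2 CPM in the library labelled shDdr2 1 minus the mean of the other 5 libraries, against transcript length in bases (log axis), for the 15 keratins (orange), the other 19 genes (blue) and the median of all genes in each length bin (black lines). The black lines fall from 0.77 to -1.02 with length, the long genes Plec and Dst lie below them near -2, and Krt8, Krt19, Krt7 and Krt18 lie far below the lines for their length.

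No regulator of the basal state passed the test. Trp63, the transcription factor that sets up stratified epithelium, stood at 587, 591 and 554 CPM in the libraries labelled shDdr2, against 446, 541 and 646 CPM in control tumours, and its isoforms are not separated in the counts. Sfn, stratifin, an adaptor protein of stratified epithelia, stood at 684, 382 and 434 CPM in shDdr2-labelled tumours, against 574, 493 and 617 CPM in controls. Bnc1, a zinc finger protein of basal keratinocytes, stood at 36.9, 34.5 and 39.0 CPM in shDdr2-labelled tumours, against 33.8, 39.1 and 64.1 CPM in controls. All overlapped between the groups. Log2 fold changes were 0.08 (SE 0.22), -0.17 (SE 0.28) and -0.31 (SE 0.27) in that order.

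Over the 34 genes, control 3 held the highest value in 12 and the library labelled shDdr2 1 the lowest in 15. Among the 19 genes that are not keratins, control 3 was highest in 10 (52.6%), against 8.97% of all genes tested. The library labelled shDdr2 1 was lowest in 10 of these 19 (52.6%), against 34.6% of all genes. In control 3 the median gene rose with transcript length, from -0.22 under 1500 bases to 0.28 from 10000 bases. These are log2 deviations from the mean of the other libraries. Shares among genes of like length were not taken for either library, so the part of length in these counts was not tested. Without the library labelled shDdr2 1, 0 of 34 genes and 0% of all genes were called by edgeR (smallest adjusted p of the 34, 0.658). Of the 34, 4 (Dst, Krt4, Krt16 and Sfn) had an unadjusted edgeR p under 0.05, against 6.95% of all genes. Their log2 fold changes were then 0.59 for Dst, 0.79 for Krt4, -1.13 for Krt16 and -0.46 for Sfn.

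Of 34 further keratin, desmosome, hemidesmosome and epithelial adhesion genes, 26 were in the table and 24 were tested. None was called in either direction by edgeR (0 of 24, against 0% of all genes), and DESeq2 called 0 (0.276% of all genes). At an unadjusted edgeR p under 0.05 there was 1 of 24, against 1.44% of all genes. Cdsn, corneodesmosin of the outer epidermis, had the smallest p, with 88.7, 20.3 and 57.8 CPM in the libraries labelled shDdr2, against 24.5, 17.6 and 20.9 CPM in control tumours. Its groups overlapped at a log2 fold change of 1.40 (SE 0.49, edgeR's unadjusted p of 0.0232). Epcam, an adhesion protein of epithelial cells, stood at 207, 214 and 192 CPM in shDdr2-labelled tumours, against 286, 284 and 231 CPM in controls. Its groups did not overlap, at a log2 fold change of -0.39 (SE 0.19). Krt10, the type I keratin of differentiated epidermis, stood at 1401, 335 and 222 CPM in shDdr2-labelled tumours, against 378, 323 and 177 CPM in controls, and was highest in the library labelled shDdr2 1. Of 18 epithelial transcription regulators, 18 were tested and 0 were called by edgeR or DESeq2, against 0% and 0.276% of all genes. At an unadjusted edgeR p under 0.05 there was 1 of 18, against 1.44% of all genes. Elf3, an ETS factor of differentiating epithelium, stood at 58.6, 71.1 and 102 CPM in shDdr2-labelled tumours, against 158, 142 and 102 CPM in controls. The groups met at 102 CPM, and the log2 fold change was -0.79 (SE 0.28; edgeR's unadjusted p of 0.0235). Tfap2a, an AP-2 factor of ectoderm and its derivatives, and Zfp750, a zinc finger regulator of epidermal differentiation, were fitted at -0.46 (SE 0.25) for Tfap2a and -0.31 (SE 0.27) for Zfp750.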

How the data were processed

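Whole-tumour RNA from 6 samples was sequenced as poly-A selected, paired-end 150 bp reads, per the labels' protocols. RSEM (version 1.2.31), Bowtie2 (version 2.1.0), limma and GRCm38.p5 appear, with no role given, per the submitters' processing notes. The authors deposited a table of whole counts by Entrez number, and whether these are rounded estimates was not settled. Of these, 17 values of 100000 or more carry 3 significant digits, 2 of them of genes described here (Krt5 and Krt14, both in the library labelled shDdr2 2). Every deposited count is at least 1, and genes absent from the table were not analysed here. The authors also deposited log2 values. With 1 added after a scaling factor for each library, reversing the log2 returned whole numbers within 0.05 for all 91770 values. For annotation, strand setting and shared reads the sources used here give nothing. Of the 34 genes, 12 share exonic bases with another GENCODE M21 gene, mostly on the opposite strand (Plec shares some with Parp10 on the same strand), and their values are uncertain to that extent.

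Symbols came from RefSeq by Entrez number (14876 matched, 419 did not). Transcript and coding lengths and gene coordinates came from GENCODE M21 (GRCm38). Length is that of the longest protein-coding transcript or coding sequence, and 92.9% of genes tested had one. Upstream sequences came from RefSeq, where 12 of the 34 genes had an entry and 9 of these lay within 50 bases of a GENCODE protein-coding start. Counts were filtered with filterByExpr, scaled by TMM and tested with edgeR 4.0.16 (robust quasi-likelihood) in R 4.3.3, two-sided, adjusted over 14498 genes at a threshold of 0.05. The common biological coefficient of variation was 35.3%, and the 95% interval of the median gene reached 0.755 on the log2 scale to either side. Log2 CPM used a prior count of 2. Alternatives were other scalings and filters, DESeq2 1.42.0, limma 3.58.1, a replicate block, leaving out each library, and a transcript length correction (lowess, span 0.3) added after seeing the data. Members, classes and lists were chosen with earlier results of these data known. The text names every one of the 34 genes, Ddr2, and the 3 genes of each further list with the smallest p.

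Replicate numbers come from the titles. Deviations from group means correlated between same-numbered libraries across genes with r of 0.299, 0.267 and 0.253, all over the criterion of 0.1. The library labelled shDdr2 2 with control 3 gave 0.254, as high as a same-numbered pair, and the labels do not say what a number stands for. No libraries of a group agreed within counting noise (chi-square over degrees of freedom 24.8 to 229).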

Additional observations from a re-analysis of the deposited data

How the results depend on the processing

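No setting tried called any of the 34 genes. DESeq2 called 40 of all genes (34 higher, 6 lower in the libraries labelled shDdr2), against 0 with edgeR, where 209 had an unadjusted p under 0.05; no other setting called a gene. Of 544 alternative fold changes of the 34 genes, 46 turned sign, 33 of them with a library left out, and 13 genes never turned. With plain library totals Krt5 was -0.01, Krt16 -0.10 and Plec 0.0017 on the log2 scale. The replicate block, which follows the pairing by number, gave -0.25 for Krt16 and -0.12 for Dst, called 0 genes, and changed no call. With limma-voom Krt16 was -0.25 and Dst -0.15, and with limma on the deposited log2 values Krt16 was -0.27, Dst -0.14 and Perp -0.00086. The transcript length correction gave -0.17 for Krt16, and with the replicate block -0.27 for Krt16 and -0.0082 for Perp. The causes were not tested.

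Leaving out each library in turn gave these lowest to highest log2 fold changes for the genes that turned sign: Krt5 -0.03 to 0.09, Krt6b -0.97 to 0.16, Krt13 -0.13 to 0.10, Krt14 -0.17 to 0.04, Krt16 -1.13 to 0.41, Krt23 -0.21 to 0.78, Dsc2 -0.72 to 0.82, Dsc3 -0.46 to 0.04, Dsp -0.54 to 0.06, Jup -0.23 to 0.21, Pkp1 -0.33 to 0.0023, Pkp2 -0.52 to 0.09, Perp -0.47 to 0.41, Itga6 -0.07 to 0.31, Itgb4 -0.33 to 0.29, Trp63 -0.03 to 0.23, Dst -0.20 to 0.59, Plec -0.44 to 0.41, Bnc1 -0.48 to 0.01, Evpl -0.50 to 0.17, Ppl -0.40 to 0.05. The class differences kept their sign for basal and simple keratins under every left-out library, and the stress difference ran from -0.54 to 0.06. These class means do not speak for each gene. Krt15 was fitted at 0.60, but Krt5 at 0.02 and Krt14 at -0.05, and both of the latter turned sign as listed. The simple mean includes the 4 counts of Krt8 in the library labelled shDdr2 1. Krt7 and Krt19 were at -0.12 and -0.08 without control 1. With 3 libraries a group, the 95% interval of the median gene reached 0.755 to either side, before any adjustment over genes, and that of Krt8 ran from -3.64 to 0.82.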
